A study of Homo sapiens with 12 samples.

Results

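The genes of the BCL2 family, the caspases, the death receptors and their regulators were described in 2 human DLBCL (diffuse large B-cell lymphoma) cell lines, U2932 and TMD8, at baseline and after treatment with antibodies against CD20. The 37 genes were taken by symbol from the 58884 genes of the deposited count table, and each symbol matched 1 gene. They are listed by function, and the rule uses no value of these data, but the list was made with earlier results of these data known. Each line was treated for 4 h with 20 µg/mL of rituximab (R), ofatumumab (OF) or a human IgG1 isotype control, which is an antibody of the same class without the anti-CD20 specificity. R and OF bind different parts of CD20, a surface protein of B cells, and the study asked how the transcriptional responses to them differ. All cells were unmodified (labelled WT), and each of the 6 conditions had 2 libraries, 1 from each of 2 cultures of the line that were kept apart for a week before treatment. The study's methods list both lines as the activated B-cell subtype. A difference between U2932 and TMD8 is a difference between those lines only.

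Apoptosis, the programmed death of cells, is run by caspases, proteases that are kept inactive until a signal cuts or assembles them. In the mitochondrial pathway, BAX and BAK1 open the outer mitochondrial membrane, anti-apoptotic proteins such as BCL2, BCL2L1 (BCL-XL) and MCL1 hold them back, and BH3-only proteins such as BCL2L11 (BIM), BID, BBC3 (PUMA) and PMAIP1 (NOXA) bind and neutralize the anti-apoptotic proteins or activate BAX and BAK1 directly. Cytochrome c (CYCS) then leaves the mitochondria and joins APAF1 and CASP9 in the apoptosome. In the receptor pathway, FAS, TNFRSF10A, TNFRSF10B (the TRAIL receptors) and TNFRSF1A recruit FADD or TRADD and activate CASP8 or CASP10, and CASP8 cuts BID, which joins the pathways. Mature B cells and the lymphomas that come from them are known for their reliance on BCL2, MCL1 and BCL2A1.

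Libraries held 15440226 to 27110612 counts, of which the 37 genes took 0.754% to 0.789% in U2932 and 0.322% to 0.338% in TMD8. A pair of TMD8 libraries was unlike the remaining 4 of that line, namely the second replicates of OF and of isotype. Their share of mitochondrial genes was 3.73% (OF) and 3.99% (isotype), where the rest had 5.70% to 6.23%, and their share of ribosomal protein genes was 7.16% and 6.50%, where the rest had 10.0% to 10.8%. The trend of counts with GC content (log2, highest minus lowest decile of genes) was 0.62 and 0.45 in them and −0.29 to 0.19 in the rest. In U2932 that trend was −0.48 in isotype replicate 2 and −0.19 to 0.05 in the others, and ribosomal protein genes held 4.44% and 4.74% with isotype against 6.03% to 6.56% with R or OF. The part of these differences in the U2932 results was not tested beyond the GC content correction given below. Over all genes, the SE for R against isotype had a median of 0.12 log2 units in U2932 and 0.25 in TMD8. MS4A1, which encodes CD20, was at 856 to 1681 CPM (the usual depth-normalised count unit, here with TMM scaling over all 12 libraries) in U2932 and at 946 to 2348 CPM in TMD8. T-cell genes (CD3D, CD3E, CD3G and CD8A) and myeloid genes (LYZ, CD14 and CSF1R) were below 1 CPM in every library. EPCAM, an epithelial marker, was at 28.6 to 37.3 CPM in U2932, where KRT8 and KRT18 were below 0.2 CPM, and its part in the results was not tested.

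Promoters are shown for 3 members on which the antibody results turn. In a fit with the replicate number, taken as the culture of origin, as a term, BID rose in both lines with both antibodies. In that fit BCL2L1 fell further in TMD8 than in U2932 with both, and PMAIP1 did so with OF. Each sequence runs from 250 bases before to 50 bases after the transcription start, 5′ to 3′ on the gene's strand, as RefSeq gives it for GRCh38.p14. Capitals mark GC boxes (GGGCGG on either strand) in BID and PMAIP1, and TATA boxes (TATAAA on either strand) in BCL2L1. The windows are chr22:17774420-17774719 on the minus strand for BID, chr20:31723914-31724213 on the minus strand for BCL2L1 and chr18:59899746-59900045 on the plus strand for PMAIP1.
BID: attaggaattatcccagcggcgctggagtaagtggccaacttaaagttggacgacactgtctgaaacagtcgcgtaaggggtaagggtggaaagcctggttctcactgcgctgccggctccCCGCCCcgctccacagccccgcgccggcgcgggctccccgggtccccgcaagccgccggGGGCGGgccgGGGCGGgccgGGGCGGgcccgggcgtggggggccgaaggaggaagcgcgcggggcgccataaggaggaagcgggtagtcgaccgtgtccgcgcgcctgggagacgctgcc
BCL2L1: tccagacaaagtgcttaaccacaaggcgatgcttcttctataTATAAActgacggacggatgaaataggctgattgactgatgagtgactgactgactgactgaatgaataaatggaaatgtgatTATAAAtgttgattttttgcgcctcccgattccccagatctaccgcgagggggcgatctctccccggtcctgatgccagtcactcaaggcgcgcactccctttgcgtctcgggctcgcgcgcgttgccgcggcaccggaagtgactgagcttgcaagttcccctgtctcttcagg
PMAIP1: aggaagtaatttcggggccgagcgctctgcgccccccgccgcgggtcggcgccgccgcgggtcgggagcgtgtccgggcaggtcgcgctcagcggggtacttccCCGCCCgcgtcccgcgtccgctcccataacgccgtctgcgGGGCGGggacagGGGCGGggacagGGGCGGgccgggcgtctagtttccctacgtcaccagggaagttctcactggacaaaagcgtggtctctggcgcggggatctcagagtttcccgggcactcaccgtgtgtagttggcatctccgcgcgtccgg
The BID and PMAIP1 windows each held 4 GC boxes and were 71.7% and 71.3% GC, and the BCL2L1 window held 2 TATA boxes and was 52.0% GC. Boxes are matches of letters anywhere in the window, whatever their distance from the start, and whether they act was not tested. GC boxes were found in 19 of the 30 members with a promoter in the table (63.3%), against 45.0% of 35116 promoters, and TATA boxes in 2 of 30 (6.7%), BCL2L1 and BCL2A1, against 11.5%. Median GC content was 65.6% for the 30 members and 58.7% for all promoters. BIK, MCL1, BCL2L2, CASP10, TRADD, TNFRSF10A and TNFRSF10B had no promoter in the table.

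Under isotype, U2932 and TMD8 differed in 27 of the 37 genes at an adjusted p-value under 0.10 (edgeR's quasi-likelihood test over all 12 libraries, Benjamini-Hochberg adjustment over 16187 genes). Below, "called" means past that threshold in the fit named, which for the antibodies is a fit of the 6 libraries of 1 line. Of these, 14 were higher and 13 lower in TMD8, or 37.8% and 35.1% of the members, where 33.7% and 33.2% of all genes tested were called in those directions. With a change of at least 1.5-fold, 18 members were called, or 48.6%, against 56.1% of all genes. The share of members that differed was thus near that of other genes, and what follows is a description of which ones they were. Log2 differences below are TMD8 minus U2932, each with its standard error (SE) and n = 2 libraries per line.

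The anti-apoptotic genes were lower in TMD8 for BCL2, MCL1 and BCL2L1 and higher for BCL2L2. BCL2, the founding member of the family, was at 1137 and 1143 CPM in the U2932 isotype libraries and at 122 and 177.5 CPM in those of TMD8, a log2 difference of −2.93 (SE 0.19, adjusted p = 1.7e-07). MCL1, a short-lived inhibitor of BAK1 and BAX, was at 2308 and 2331 CPM in U2932 and at 409 and 410 CPM in TMD8, a difference of −2.50 (SE 0.13, adjusted p = 2.9e-08). The groups were far apart for both genes. BCL2L1 was at 140 and 133 CPM in U2932 and at 76.0 and 79.7 CPM in TMD8 (−0.81, SE 0.11, adjusted p = 5.4e-05). BCL2L2 (BCL-W) was low in both lines, at 2.82 and 2.72 CPM in U2932 and 6.51 and 9.16 CPM in TMD8 (1.51, SE 0.23, adjusted p = 0.00013). Its exons are shared with the readthrough gene BCL2L2-PABPN1, so its counts are uncertain. BCL2A1, a target of NF-κB, was at 124 and 149 CPM in U2932 and at 233 and 111 CPM in TMD8, where the 2 libraries lay on either side of the U2932 values, and was not called (0.33, SE 0.32, adjusted p = 0.39). BCL2L12, a family member whose role is debated, was higher by 0.44 (SE 0.12, adjusted p = 0.0082), a call that was lost after the GC content trend of each library was removed (adjusted p = 0.17).

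Both effectors were higher in TMD8. BAX was at 88.9 and 76.9 CPM in U2932 and at 243 and 215 CPM in TMD8 (1.47, SE 0.13, adjusted p = 1.5e-06). BAK1 was at 45.0 and 40.85 CPM in U2932 and at 108 and 117 CPM in TMD8 (1.39, SE 0.12, adjusted p = 1.5e-06). In neither gene did the lines overlap.

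Among the 8 BH3-only genes, 3 were higher and 3 lower in TMD8. BCL2L11, which binds all the main anti-apoptotic proteins, was at 95.3 and 92.6 CPM in U2932 and at 334.5 and 422 CPM in TMD8 (2.01, SE 0.14, adjusted p = 3.6e-07). BID was at 32.3 and 33.1 CPM in U2932 and at 139 and 82.1 CPM in TMD8 (1.76, SE 0.23, adjusted p = 5.1e-05), with a wide gap between the TMD8 replicates. BBC3 was at 11.9 and 9.69 CPM in U2932 and at 36.2 and 29.4 CPM in TMD8 (1.60, SE 0.18, adjusted p = 1.6e-05). The differences of BIK and PMAIP1 were larger. BIK, a BH3-only protein of the endoplasmic reticulum, was at 114 and 119 CPM in U2932 and at 5.77 and 6.18 CPM in TMD8 (−4.29, SE 0.15, adjusted p = 2.8e-09). PMAIP1, the partner of MCL1 and BCL2A1, was at 1639 and 1669 CPM in U2932 and at 122 and 96.2 CPM in TMD8 (−3.92, SE 0.19, adjusted p = 1.6e-08). HRK was at 16.4 and 17.5 CPM in U2932 and at 12.3 and 14.2 CPM in TMD8 (−0.35, SE 0.17, adjusted p = 0.0998), and its call was lost after the GC content correction (adjusted p = 0.155). BAD and BMF both differed by 0.33 (SE 0.19 and 0.18) and were not called. Both were called with the replicate block (adjusted p = 0.047 and 0.029), a fit in which the replicate number, taken as the culture of origin, was a term.

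**Figure D1:**
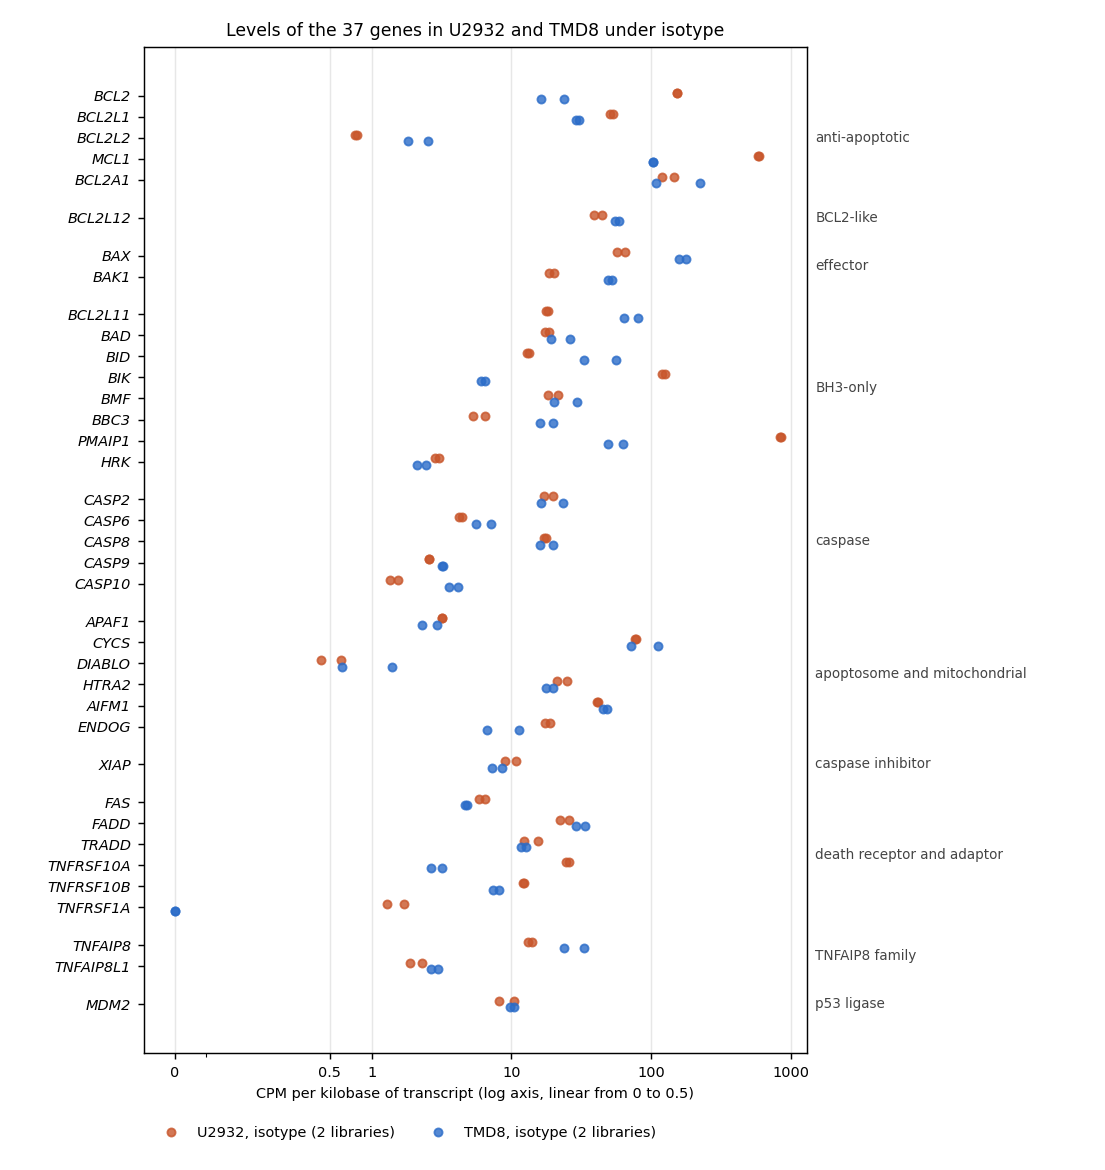
CPM per kilobase of transcript (log axis, linear from 0 to 0.5) of the 37 genes in the 2 isotype libraries of each line, grouped by role. PMAIP1 and MCL1 stood highest in U2932, BIK and TNFRSF10A were far lower in TMD8, and TNFRSF1A was at 0 in both TMD8 libraries.

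Per kilobase of transcript, so that genes can be compared with each other, the order of the levels also differed between the lines. PMAIP1 was the highest member in U2932, with a mean of 836 CPM per kilobase over the 6 libraries, followed by MCL1 at 634, BCL2 at 143, BIK at 142 and BCL2A1 at 129, where the ranges of the last 3 overlapped. In TMD8 the highest was BAX at 156, with all 6 libraries above those of MCL1 at 117 and CYCS at 109, and BCL2A1, at 139, overlapped all 3. BCL2L11 followed at 79.3 and overlapped CYCS and BCL2A1. Of the summed level of the 5 anti-apoptotic genes, MCL1 made up 62.9% to 68.5% in the U2932 libraries and 27.6% to 49.6% in those of TMD8, and BCL2A1 12.5% to 15.4% and 34.7% to 59.8%. Of the 8 BH3-only genes, PMAIP1 made up 76.5% to 81.1% in U2932 and 11.1% to 24.4% in TMD8, where BCL2L11 held 24.9% to 36.8% and BID 13.9% to 30.8%. The summed levels were 913 to 1010 CPM per kilobase for the anti-apoptotic and 1040 to 1150 for the BH3-only genes in U2932, and 236 to 376 and 237 to 275 in TMD8. These are levels of RNA and not of protein. Lengths are those of each gene's longest coding transcript in GENCODE 29, which need not be the one that the cells make. The order and the shares depend on that choice.

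**Figure D2:**
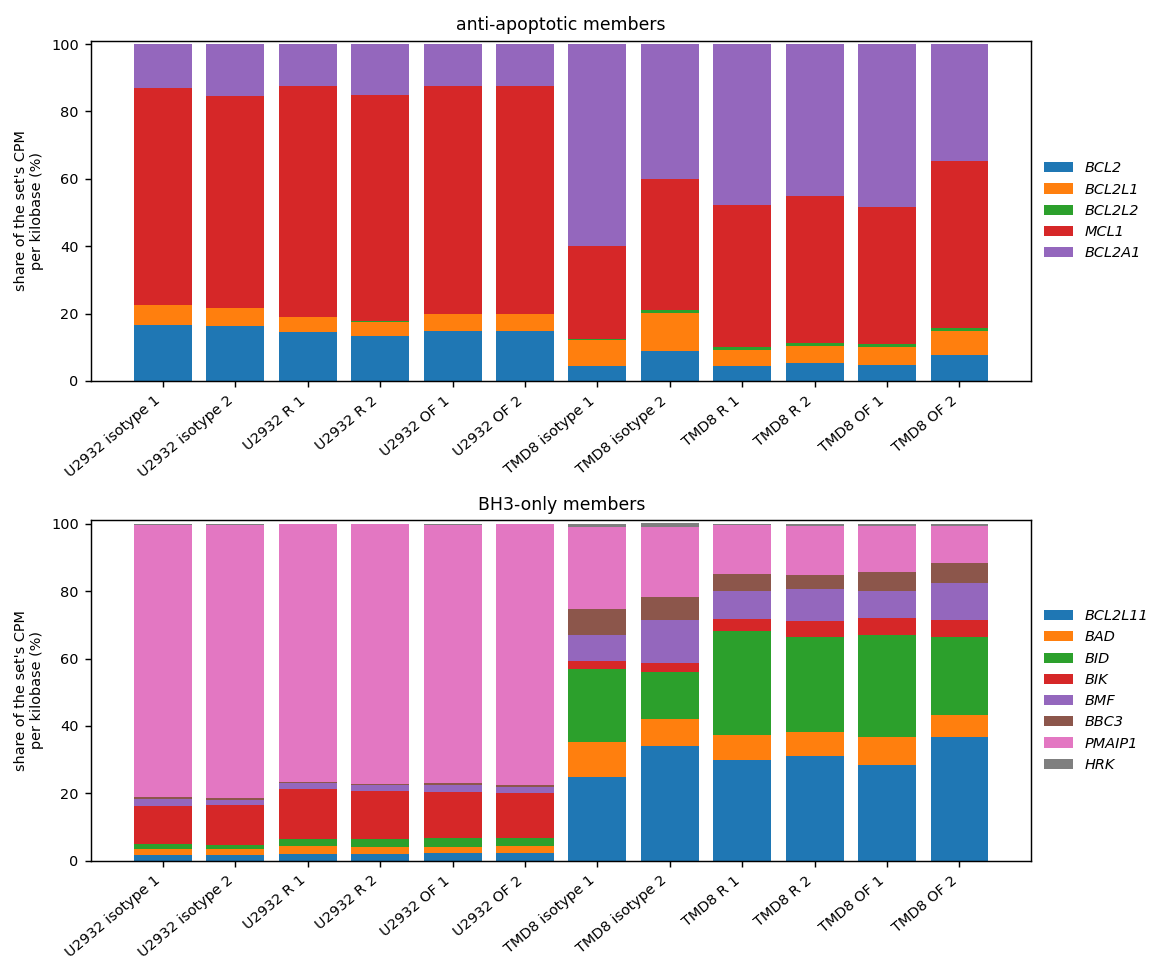
Share of each gene in the summed CPM per kilobase of the 5 anti-apoptotic genes (top) and the 8 BH3-only genes (bottom), in percent, for each of the 12 libraries. MCL1 and PMAIP1 made up most of their sets in every U2932 library, and in TMD8 the BID share was lowest in isotype replicate 2 (13.9%).

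Most caspases and mitochondrial factors differed by less than 1.5-fold between the lines, although several of these were called. CASP10, an initiator caspase of the receptor pathway, was at 9.04 and 7.98 CPM in U2932 and at 24.45 and 21.2 CPM in TMD8 (1.42, SE 0.18, adjusted p = 3.0e-05). ENDOG, a mitochondrial nuclease, was at 22.1 and 20.3 CPM in U2932 and at 13.4 and 7.85 CPM in TMD8 (−1.01, SE 0.22, adjusted p = 0.0018). DIABLO, an antagonist of XIAP, was at 1.12 and 0.877 CPM in U2932 and at 1.14 and 2.59 CPM in TMD8 (0.95, SE 0.44, adjusted p = 0.083). It shares exons with 2 further entries of the annotation, and its call was lost without TMD8 OF replicate 2 and isotype replicate 2 (adjusted p = 0.73), so its level is uncertain. The executioner CASP6 was higher in TMD8 by 0.56 and the initiator CASP9 by 0.31, and the protease HTRA2 and the caspase inhibitor XIAP were each lower, with a log2 difference of −0.31, the XIAP call being lost after the GC content correction (adjusted p = 0.11). CASP2, CASP8, APAF1, CYCS and the flavoprotein AIFM1 were not called, with differences of −0.27 to 0.24, and of these APAF1 was called with the replicate block (−0.28, adjusted p = 0.051).

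Death receptors were the other set with large differences, all toward U2932. TNFRSF10A (TRAIL receptor 1) was at 66.2 and 69.8 CPM in U2932 and at 8.57 and 7.25 CPM in TMD8 (−3.11, SE 0.13, adjusted p = 7.7e-09). TNFRSF10B (TRAIL receptor 2) was at 50.3 and 51.0 CPM in U2932 and at 30.4 and 34.0 CPM in TMD8 (−0.65, SE 0.15, adjusted p = 0.0033). TNFRSF1A, a receptor of TNF, had 65 to 123 counts in each U2932 library and 0 counts in all 6 of TMD8. Taking 3 counts per library as the limit that a count of 0 allows, which covers counting error only, its level under isotype was at least 16.6-fold higher in U2932, at 3.80 and 2.85 CPM. FAS was lower in TMD8 by a log2 difference of −0.39, and the adaptor FADD was higher by 0.37. Both calls were lost after the GC content correction (adjusted p = 0.12 and 0.32), and the adaptor TRADD was not called (−0.17). That correction added calls of TRADD (−0.48, adjusted p = 0.025), AIFM1 (0.26, adjusted p = 0.049) and BMF (0.27, adjusted p = 0.090). TNFAIP8, an inhibitor of CASP8-driven death, was at 114 and 122 CPM in U2932 and at 289 and 205 CPM in TMD8 (1.06, SE 0.20, adjusted p = 0.00078), its relative TNFAIP8L1 was higher by 0.43, and MDM2, a ubiquitin ligase, was not called (0.12).

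In U2932, R changed 17 and OF 14 of the 37 genes against isotype, almost all by less than 1.5-fold. With R, 11 members rose and 6 fell, or 29.7% and 16.2%, where 16.8% of 14635 genes rose and 17.4% fell. With OF, 10 rose and 4 fell, or 27% and 10.8%, against 18.7% and 17.8% of all genes. At least 1.5-fold changes were called in 3 members with R and 2 with OF, or 8.11% and 5.41%, against 10.2% and 11.1% of all genes. The median log2 fold change of the members was 0.05 with R and 0.06 with OF, and −0.02 and 0.01 over all genes. R and OF were compared with the same isotype libraries.

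BID, the BH3-only protein that CASP8 cuts, rose 1.92-fold with R and 1.96-fold with OF. Its level was 32.3 and 33.1 CPM with isotype, 59.2 and 66.6 CPM with R and 63.9 and 64.2 CPM with OF. All 4 anti-CD20 libraries lay well above both isotype libraries, and the log2 fold change was 0.94 ± 0.10 (SE) for R and 0.97 ± 0.10 for OF, at adjusted p = 9.4e-08 and 7.3e-08. TNFRSF1A was at 3.80 and 2.85 CPM with isotype, 5.95 and 5.03 CPM with R and 7.18 and 6.02 CPM with OF. The groups did not overlap, and it rose by 0.72 ± 0.21 and 0.99 ± 0.20 (adjusted p = 0.0094 for R and 0.00053 for OF), although it was among the lowest members. HRK, a BH3-only protein known from neurons, was the member that fell the furthest, from 16.4 and 17.5 CPM with isotype to 10.7 and 11.1 CPM with R and 11.8 and 11.6 CPM with OF. That is −0.63 ± 0.13 and −0.53 ± 0.13 on the log2 scale (adjusted p = 0.00049 for R and 0.0025 for OF), the latter under 1.5-fold.

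Smaller changes were spread over both arms of the pathway. Among the other BH3-only genes in U2932, BCL2L11 rose by 0.20 with R and 0.34 with OF, BAD by 0.41 and 0.31 and BIK by 0.39 and 0.23, whereas BMF, BBC3 and PMAIP1 were not called. The BAD and BIK calls with OF were lost after the GC content correction (adjusted p = 0.43 and 0.29). Caspases moved up where they were called, CASP6 by 0.46 and 0.51, CASP8 by 0.28 and 0.28 and CASP9 by 0.54 and 0.46, and CASP2 and CASP10 were not called. CYCS rose by 0.41 and 0.29. HTRA2, a mitochondrial protease that binds XIAP, had log2 fold changes of −0.32 and −0.26 and XIAP of −0.26 and −0.24, the XIAP call with OF being lost after the GC content correction (adjusted p = 0.32). MDM2 fell as well, with −0.33 and −0.38. With R, BCL2 (−0.17) and BCL2L1 (−0.29) fell and MCL1 (0.17) and TNFAIP8 (0.24) rose, and with OF these 4 had −0.10, −0.14, 0.14 and 0.05 and were not called. After the GC content correction the last 3 were called with OF too (−0.27, 0.18 and 0.18). TNFAIP8L1 rose with OF (0.43, adjusted p = 0.031) and had 0.33 with R (adjusted p = 0.11, and 0.083 with the replicate block). ENDOG had 0.24 with R (adjusted p = 0.12, and 0.090 with the replicate block).

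The remaining members of the U2932 comparison, among them BAX, BAK1, APAF1, DIABLO, FAS, FADD, TRADD, TNFRSF10A and TNFRSF10B, were not called with either antibody, but after the GC content correction BAK1 (−0.23 with R and −0.21 with OF) and APAF1 (0.29 and 0.29) were called with both, BMF with R (−0.17) and BAX with OF (−0.15). When 1 model with 1 estimate of the spread was fitted to all 12 libraries, only 3 members were called with each antibody in U2932. Fewer members were also called with R without U2932 R replicate 2, and with OF without U2932 OF replicate 2. The share of all genes called in these fits is not given here.

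**Figure D3:**
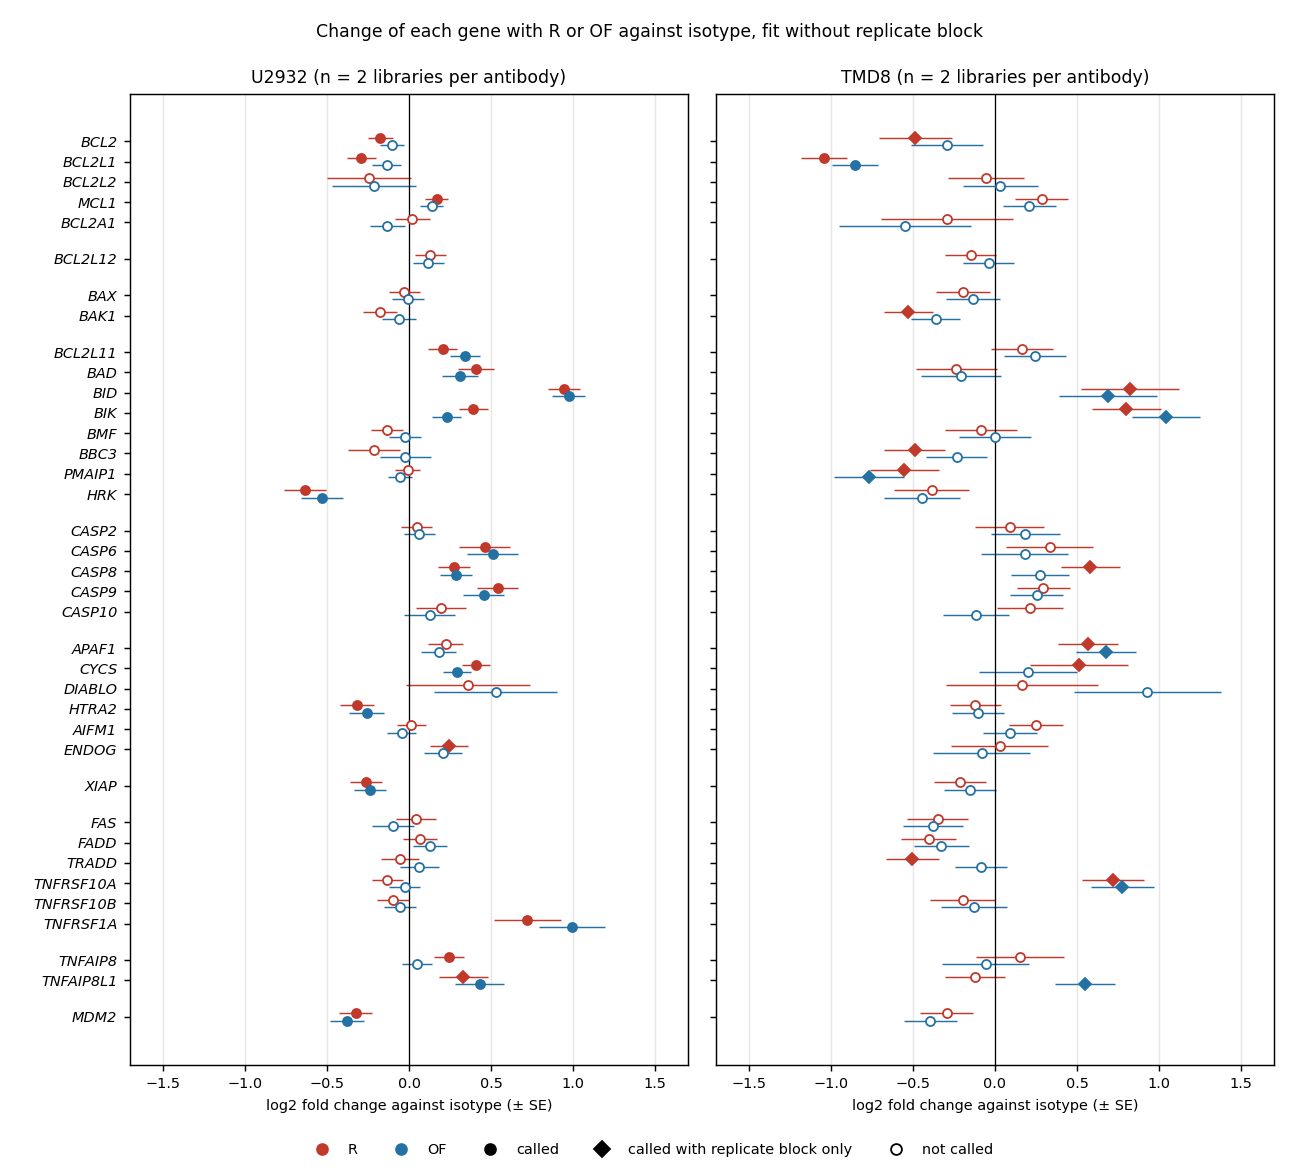
Log2 fold change against isotype (± SE) of each of the 37 genes with R (red) and OF (blue) in U2932 (left) and TMD8 (right), with filled circles for genes called without the replicate block, diamonds for those called only with it and open circles for the rest. BID lies to the right with both antibodies in both lines, BCL2L1 lies farthest to the left in TMD8, and standard errors are wider in TMD8.

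In TMD8, BCL2L1 was the 1 member called in the fit of that line without the replicate block. DESeq2 also called BIK with OF (adjusted p = 0.033), and fitting all 12 libraries together called 10 members with R and 7 with OF. The share of all genes called in that joint fit is not given here. BCL2L1 was at 76.0 and 79.7 CPM with isotype, 37.6 and 37.5 CPM with R and 43.1 and 42.7 CPM with OF. The replicates of each antibody were close to each other and far from isotype, and its level with R was 0.485 and with OF 0.554 times that with isotype (a log2 change of −1.04 ± 0.14, adjusted p = 0.072, and of −0.85 ± 0.14, adjusted p = 0.095). That was 1 of 36 members in each comparison and 0 that rose, where 0.246% of 14227 genes fell and 0.401% rose with R, and 0.344% fell and 0.471% rose with OF. BCL2L1 was not called when only the 4 libraries compared were fitted, and it was not called without R replicate 1, R replicate 2 or isotype replicate 2 in the comparison with R, nor in the comparison with OF without any one of the R libraries, OF libraries or isotype replicate 1.

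A replicate number was taken to stand for 1 culture of the line in all 3 conditions. In TMD8 the replicate differences of OF and isotype correlated at 0.69 across genes, and those of R with them at 0.22 and 0.23. R replicate 2, with mitochondrial and ribosomal protein shares of 5.7% and 10%, was not shifted as OF and isotype replicate 2 were. A replicate term shared by all 3 conditions therefore does not fully remove that shift from R against isotype. The part of the shift in those values was not tested. With the replicate block, 12 members were called with R and 7 with OF in TMD8. Of these, 6 rose and 6 fell with R, or 16.7% each, against 8.99% and 8.73% of all genes. With OF, 5 rose and 2 fell, or 13.9% and 5.56%, against 7.45% and 6.87%. Values in the next 2 paragraphs come from this fit, and log2 fold changes without the 2 libraries that stood apart come from a fit in which only R had 2 libraries, so that OF and isotype are taken to vary as R did.

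BID rose in TMD8 too, from 139 and 82.1 CPM with isotype to 204 and 186 CPM with R and 209 and 147 CPM with OF. Replicate 2 was below replicate 1 in each condition, and the ranges of OF and isotype did not overlap (0.88 ± 0.17 for R and 0.71 ± 0.17 for OF, adjusted p = 0.017 and 0.036). Without the 2 libraries that stood apart, it had 0.48 with R and 0.57 with OF. BIK, at low levels in TMD8, went from 5.77 and 6.18 CPM with isotype to 9.04 and 11.7 CPM with R and 12.6 and 11.9 CPM with OF (0.80, SE 0.19, adjusted p = 0.034, and 1.04, SE 0.19, adjusted p = 0.017), with 0.84 and 1.11 without those libraries. PMAIP1 fell, from 122 and 96.2 CPM with isotype to 74.5 and 73.7 CPM with R and 73.4 and 54.4 CPM with OF (−0.54, SE 0.14, adjusted p = 0.048, and −0.77, SE 0.14, adjusted p = 0.018), with −0.73 and −0.745 without them. BBC3 (−0.49) and the effector BAK1 (−0.53) fell with R, and had −0.23 and −0.36 with OF, where they were not called.

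TNFRSF10A rose from 8.57 and 7.25 CPM with isotype to 12.2 and 13.6 CPM with R and 13.3 and 13.7 CPM with OF, with no overlap (0.72, SE 0.18, adjusted p = 0.038, and 0.78, SE 0.18, adjusted p = 0.032), and had 0.58 and 0.62 without the libraries that stood apart. APAF1, the scaffold of the apoptosome, went from 16.05 and 20.85 CPM with isotype to 27.2 and 27.2 CPM with R and 26.98 and 31.7 CPM with OF (0.58, SE 0.15, adjusted p = 0.042, and 0.68, SE 0.15, adjusted p = 0.028). CASP8 was at 58.0 and 47.1 CPM with isotype, 77.9 and 78.5 CPM with R and 68.3 and 58.3 CPM with OF, and rose with R (0.59, SE 0.13, adjusted p = 0.029) and was not called with OF (0.28, adjusted p = 0.24). BCL2 (−0.46) and TRADD (−0.50) fell and CYCS (0.56) rose with R, and TNFAIP8L1 rose with OF (0.55, SE 0.16, adjusted p = 0.076). BCL2 was at 121.8 and 177.5 CPM with isotype and at 100.7 and 111.8 CPM with R. CYCS was at 458.9 and 292.1 CPM with isotype and at 547.1 and 519.4 CPM with R. For both genes isotype replicate 2, which stood apart, lay farther from the R libraries than isotype replicate 1 did. After the GC content correction with the block, BBC3, CYCS and TRADD were no longer called with R, nor TNFAIP8L1 with OF, while BAK1 was called with both antibodies. The other members of TMD8, among them BAX, MCL1, BCL2A1, BCL2L11, FAS and XIAP, were not called with the block.

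**Figure D4:**
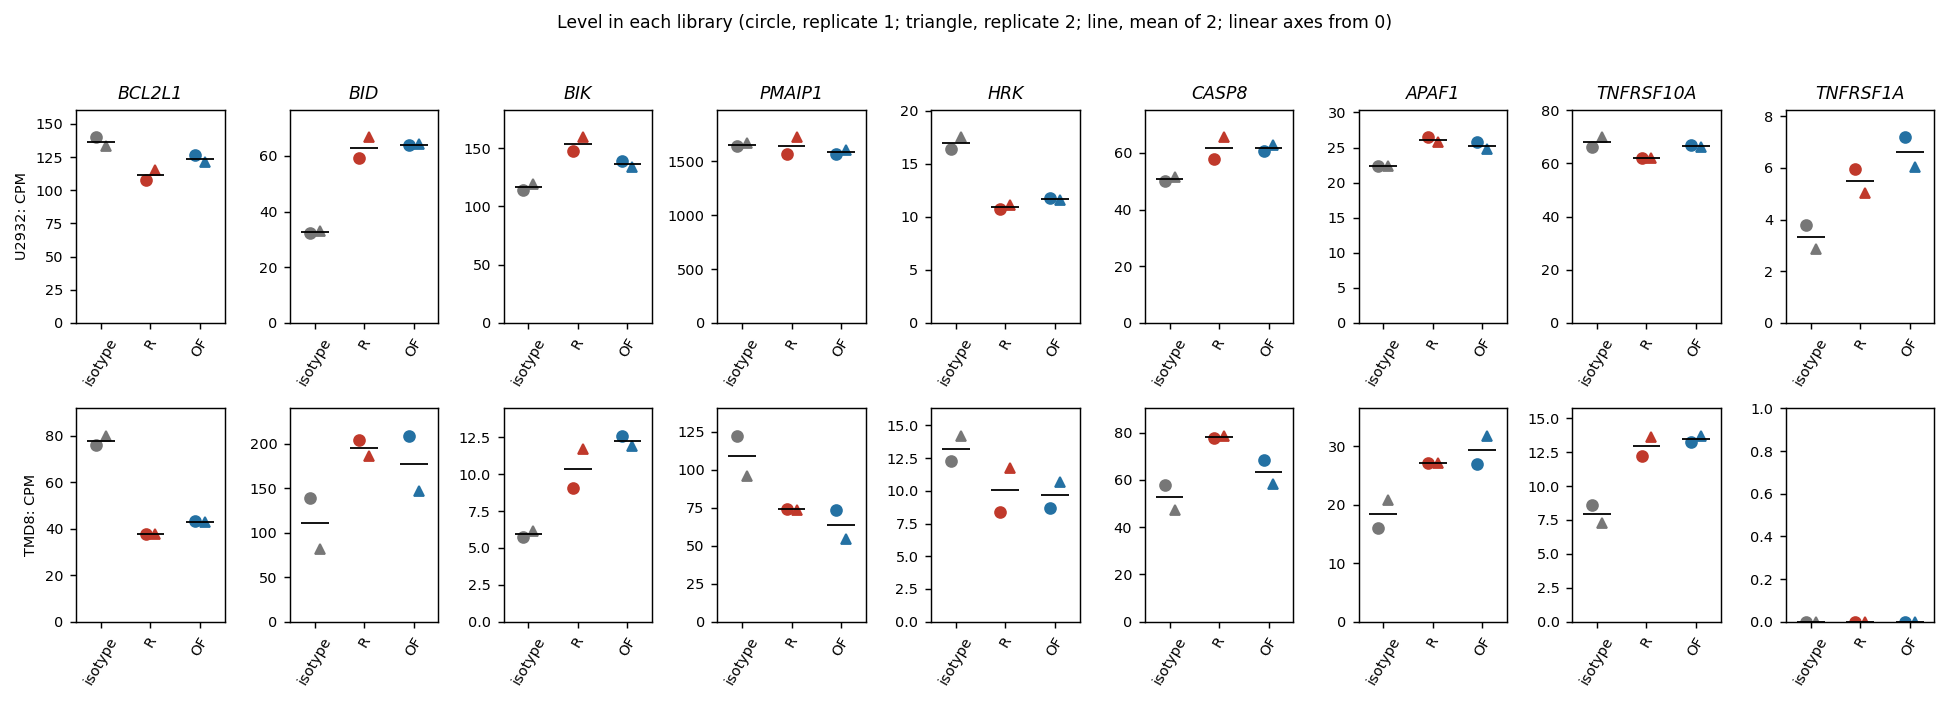
CPM of 9 members in each library of U2932 (top) and TMD8 (bottom), on linear axes from 0, with a circle for replicate 1, a triangle for replicate 2 and a line for their mean. BID was higher with R and OF than with isotype in both lines, BCL2L1 and PMAIP1 were lower in TMD8, and TNFRSF1A had no counts in TMD8.

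Without TMD8 OF replicate 2 and isotype replicate 2 and with no block, OF and isotype had 1 library each. In that fit BCL2A1 had −0.74 with R and −0.64 with OF. Its 2 TMD8 isotype libraries were at 233 and 111 CPM, the R libraries at 148 and 132 CPM and the OF libraries at 150 and 84.5 CPM, so isotype replicate 2 lay below 3 of the 4 anti-CD20 libraries. The part that the composition of these 2 libraries has in the TMD8 values was not tested.

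With R, 6 members were called in both lines (in TMD8 with the block), namely BCL2, BCL2L1, BID, BIK, CASP8 and CYCS. They are 35.3% of the 17 called in U2932 and 50% of the 12 called in TMD8, and over all genes these shares were 24% and 47.6%. With OF the 3 were BID, BIK and TNFAIP8L1, or 21.4% of 14 and 42.9% of 7, where all genes gave 22.1% and 57.9%. Each changed in the same direction in both lines, as did 92.4% (R) and 96.2% (OF) of all genes called in both. The TMD8 calls of BCL2 and CYCS carry the limit given above for isotype replicate 2.

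The difference between the responses of the lines was tested as an interaction. Without the block no member was called, where 0.321% of 16187 genes were called for R and 0.105% for OF, and 6 members had an unadjusted p-value under 0.05 for each antibody. DESeq2 without the block called BCL2L1 and TNFRSF10A for both antibodies and BIK for OF, and edgeR with the GC content correction called TNFRSF10A for both. TNFRSF1A could not be compared, because it had no counts in TMD8. With the block, 3 of 36 members were called for R and 4 of 36 for OF, where 6.04% and 2.23% of all genes were called. BCL2L1 fell further in TMD8 than in U2932, by a log2 difference of −0.76 ± 0.15 for R and −0.72 ± 0.15 for OF (adjusted p = 0.020 and 0.038), and its level in U2932 was 140 and 133 CPM with isotype, 108 and 115 CPM with R and 126 and 121 CPM with OF. TNFRSF10A rose in TMD8 and was not called in U2932, where it was at 66.2 and 69.8 CPM with isotype, 62.1 and 62.1 CPM with R and 66.8 and 66.3 CPM with OF, a difference of 0.85 (SE 0.17, adjusted p = 0.024) and 0.81 (SE 0.17, adjusted p = 0.047). BAD differed with R (−0.63, SE 0.19, adjusted p = 0.091). BIK (0.81, SE 0.18, adjusted p = 0.052) and PMAIP1 (−0.72, SE 0.17, adjusted p = 0.066) differed with OF. PMAIP1 was high in all U2932 libraries, at 1568 to 1722 CPM. After the GC content correction with the block, BAD was no longer called and PMAIP1 was called with R as well (−0.72, adjusted p = 0.056).

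No member was called between R and OF in the fit of either line. In U2932, 0 of 37 were called between R and OF by edgeR, and 0 by DESeq2, where 0.00683% of all genes were called, and 1 member had an unadjusted p-value under 0.05 by edgeR and 2 by DESeq2. The log2 differences between R and OF ran from −0.27 (TNFRSF1A) to 0.19 (TNFAIP8), with SEs of 0.07 to 0.37. In TMD8, 0 of 36 were called by edgeR and 0 by DESeq2, 0% of all genes were called, and 2 members had an unadjusted p-value under 0.05 by edgeR and 1 by DESeq2. Those 2 were TRADD (−0.42, SE 0.16) and TNFAIP8L1 (−0.67, SE 0.18), and the differences of all members ran from −0.76 (DIABLO) to 0.33 (CASP10), with SEs of 0.14 to 0.46. TNFAIP8L1 was at 9.30 and 10.4 CPM with R, 16.2 and 15.3 CPM with OF and 11.4 and 10.3 CPM with isotype in TMD8, so that OF lay above the other conditions without overlap, and its adjusted p-value was 0.73. Without TMD8 OF replicate 2 and isotype replicate 2, which leaves 1 OF library, TRADD had −0.51 and TNFAIP8L1 −0.71. With all 12 libraries in one fit and the replicate block, TNFAIP8L1 was called (−0.67, adjusted p = 0.064). With SEs of this size, small differences between R and OF were not detectable.

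A further 66 genes of the pathway were examined in the same fits. In U2932, 51 of them were tested, and 15 rose and 8 fell with R and 14 rose and 10 fell with OF, or 29.4% and 15.7% with R (16.8% and 17.4% of all genes) and 27.5% and 19.6% with OF (18.7% and 17.8% of all genes). Of those with at least 1.5-fold changes, TNFRSF10D, a decoy receptor of TRAIL, rose by 1.42 with R and 1.29 with OF, and BAG1, a co-chaperone that binds BCL2, by 0.92 and 0.89. The co-chaperone BAG3 rose by 0.81 and 0.89, the nuclease DFFB by 0.76 and 0.76, AIFM2 by 0.61 and 0.69, DEDD2 by 0.66 and 0.78 and the inhibitor of apoptosis BIRC5 (survivin) by 0.60 and 0.59. All 7 rose with both antibodies. In TMD8, 52 were tested and only TRAF1, an adaptor of TNF receptors, was called without the block, at −0.96 with R and −0.98 with OF. With the block, 4 rose and 7 fell with R, or 7.69% and 13.5% (8.99% and 8.73% of all genes), and 4 rose and 5 fell with OF, or 7.69% and 9.62% (7.45% and 6.87% of all genes). TNF rose by 0.96 and 1.02 and BAG1 by 0.73 and 0.87. With R, TNFRSF10D rose by 0.94 and TRAF2 (−0.75) and DAXX (−0.59) fell. With OF, BAG3 rose by 0.91 and BIRC2 (−0.85) and TNFSF10, the ligand TRAIL (−0.83), fell. Whether these differed between R and OF was tested without the block, and 0 of the 52 genes were called (1 at an unadjusted p-value under 0.05).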

How the data were processed

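RNA of 12 libraries (2 lines, 3 antibodies, 2 cultures each) was sequenced. The authors trimmed reads with Trim Galore 0.6.0, aligned them with STAR 2.7.0e to GRCh38 and deposited raw counts per gene, and per the labels they used DESeq2 1.26.0. The annotation release and strand setting are not given in the sources used here, and 25 members overlap a gene on the other strand. Counts were fitted here with edgeR 4.0.16 (quasi-likelihood test, TMM, minimum count 10) in R 4.3.3, for each line and, for the lines against each other, over all 12 libraries. Adjusted p-values are Benjamini-Hochberg over all genes tested. Without the block, p-values measure the spread between 2 cultures, and with it the spread left after the replicate term. Where a group had 1 library, they rest on the spread of the other groups. DESeq2 1.42.0, the replicate block, a GC content correction (lowess, span 0.3), other scalings and filters and left-out libraries were alternatives. Replicate numbers were taken to pair the samples because the labels describe 2 cultures per line. Their differences correlated at −0.05 to 0.1 in U2932 and 0.22 to 0.69 in TMD8. Lengths and GC content come from GENCODE 29. Names, and the match of members to genes, come from a separate list of gene names, with GENCODE 29 names for genes without a name there. The fits were tested on simulated data with no replicate shift, or with a shift shared by all 3 antibodies. A shift in OF and isotype but not in R, which the TMD8 libraries had, was not simulated.

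The members and lists were chosen with earlier results of these data known. Every member is named, and levels by library are given for members called with at least 1.5-fold changes. Other pathway genes are named where they passed that limit against isotype, except 1 that is not reported here.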

Additional observations from a re-analysis of the deposited data

Results flagged for a closer look

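The responses of the lines to the same antibody differed for 5 members in the test of the difference itself, which was an interaction term in edgeR's quasi-likelihood test with the replicate block (TMD8 minus U2932, log2 scale). For R these were BCL2L1 (−0.76, adjusted p = 0.020), BAD (−0.63, adjusted p = 0.091) and TNFRSF10A (0.85, adjusted p = 0.024). For OF they were BCL2L1 (−0.72, adjusted p = 0.038), BIK (0.81, adjusted p = 0.052), PMAIP1 (−0.72, adjusted p = 0.066) and TNFRSF10A (0.81, adjusted p = 0.047). These are 3 of 36 members for R and 4 of 36 for OF, where 6.04% and 2.23% of all genes were called. In the same test without the block none was called, with adjusted p-values of 0.10 and 0.18 for BCL2L1 and 0.11 and 0.19 for TNFRSF10A. DESeq2 without the block called BCL2L1 (adjusted p = 0.00023 for R and 0.0018 for OF), TNFRSF10A (0.0034 and 0.010) and, for OF, BIK (0.022). No group had more than 2 libraries, so no single library could be examined as an outlier within a group.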

How the results depend on the processing

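No member changed direction while called under any alternative. The share of all genes called is not given for most alternatives, so the counts below do not compare the members with other genes. In U2932, 17 members were called with R and 14 with OF. These counts became 3 and 3 with all 12 libraries in one fit, 9 and 8 when the replicate block was added to it, and 3 and 2 with a change of at least 1.5-fold, with or without the block. Leaving out 1 library gave 10 to 17 with R and 7 to 15 with OF, the lowest without R replicate 2 and OF replicate 2.

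In TMD8, 1 member was called with each antibody. The block gave 12 with R and 7 with OF, the GC content correction 2 and 2, both together 9 and 7, no filter on low counts 3 and 5, DESeq2 with the block 10 and 6, all 12 libraries in one fit 10 and 7, that fit with the block 16 and 14, and 1.5-fold with the block 5 and 6. With only the 4 libraries compared, or at an adjusted p-value under 0.05, 0 and 0 were called. DESeq2 gave 2 with OF and total counts gave 0. Leaving out 1 library gave 0 to 2 with R and 0 to 3 with OF. Without both OF replicate 2 and isotype replicate 2, 19 and 10 were called.

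Between R and OF, 0 were called, but 1 in TMD8 with all 12 libraries and the block. The baseline count of 27 became 21 to 29 with libraries left out, 20 with no filter on low counts, 24 with DESeq2, 25 with total counts, 25 with the GC content correction (5 lost, 3 gained) and 30 with the block. For the interactions, 0 were called for R and OF. The block gave 3 and 4, alone, with DESeq2, with the GC content correction or with the 1.5-fold limit. The GC content correction alone gave 1 and 1, DESeq2 2 and 3, and at least 10 counts in every library 2 for R. The number called also changed with 1 library left out, or with TMD8 OF replicate 2 and isotype replicate 2 both left out. Such fits leave 1 library in a group. The cause of these changes was not tested.

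Scaling by total counts moved the median of all genes by −0.10 (U2932) and −0.13 (TMD8) with R, by −0.08 and −0.07 with OF and by −0.13 at baseline. The block changed the calls of ENDOG and TNFAIP8L1 in U2932 with R, and no call there with OF. The combinations with the block and the fits without both libraries were chosen after the data were seen. With 2 libraries a group, small differences were not detectable, least of all in TMD8.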
